A study of Homo sapiens with 6 samples.

Results

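The RAB proteins are the largest family of small GTPases of membrane traffic, and the genes described here are the 63 protein-coding genes of the count table whose symbol is RAB, a number and at most 1 letter, out of 60604 genes and 19860 protein-coding genes. Of 64 symbols of that form, 1 (RAB1C) belonged to a processed pseudogene and was left out. A RAB switches between a GTP-bound form on a membrane and a GDP-bound form that can be extracted from it. Guanine nucleotide exchange factors (GEFs) switch it on, GTPase-activating proteins (GAPs) switch it off, and the GTP-bound form recruits effectors such as tethers and motor adaptors. Each compartment carries its own members, such as RAB1 between endoplasmic reticulum (ER) and Golgi, RAB5 on early endosomes, RAB11 on recycling endosomes, RAB7 on late endosomes and lysosomes, and RAB3 and RAB27 on secretory vesicles.

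RNA was sequenced from MIA PaCa-2, a long-established line of human pancreatic carcinoma cells with a wild-type genotype per the labels, treated with 12.5 µg/ml BP plus 10 mg/ml Huaier (BP+Huaier, 3 libraries) or with 12.5 µg/ml BP alone (BP, 3 libraries). BP is black phosphorus, a layered form of the element, and Huaier is an extract of a medicinal fungus. Both groups carried BP, so the effect of BP itself was not analysed here. The labels state neither the time of treatment nor whether the libraries within a group were separate cultures. The p-values therefore reflect only how far these libraries spread, and that spread may be technical.

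Total counts on genes lay between 15808056 and 16856727 in BP+Huaier and between 15657593 and 17036565 in BP. On the scale used for single genes, CPM (counts scaled to library size with TMM factors), 3 counts corresponded to 0.160 to 0.222 CPM. The 3rd BP+Huaier library stood apart from the other two in its group: on the first principal component of all tested genes, which held 72.4% of the variance, its score was 11.5, against 65.1 and 66.0 for BP+Huaier 1 and 2 and scores from -50.5 to -43.4 for BP. Of the carcinoma line's markers, KRT8, KRT18, KRT19 and VIM were expressed while EPCAM and CDH1 were at or below 0.160 TPM on average. KRT18 was called higher, at 824 TPM in BP+Huaier and 630 TPM in BP. KRT19 was also called higher, at 635 TPM in BP+Huaier and 406 TPM in BP, and KRT8 and VIM were not called. The leukocyte, acinar and islet lists did not exceed 0.613 TPM. The 4 fibroblast markers summed to 127 to 144 TPM in BP+Huaier and 201 to 213 TPM in BP, nearly all from COL1A2. That gene was not called, at 431 CPM in BP+Huaier and 519 CPM in BP. DCN and LUM had 0 counts, and COL1A1 was called higher at 2.21 TPM in BP+Huaier and 0.637 TPM in BP. The 3 endothelial markers summed to 6.01 to 8.10 TPM in BP+Huaier and 12.01 to 15.2 TPM in BP, nearly all from CDH5, which was called lower, with PECAM1 and VWF at or below 0.0700 TPM on average. The part of these marker differences in the RAB results was not tested. Because this is bulk RNA, fewer cells of a type and less RNA per cell cannot be told apart.

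Huaier added to BP went with higher levels of 11 RAB genes and lower levels of 4. Called under every setting tried were 5 of the 53 tested members, all of secretion or the Golgi. Those groups are the largest, with 10 and 15 tested members. The share of all genes called under every setting was not computed. RAB3A, a GTPase of regulated exocytosis, was 3.96-fold higher, and RAB26, another secretory vesicle member, 1.91-fold higher. RAB27B, which docks secretory granules and exosome-bearing endosomes, was 1.95-fold lower, and RAB36, a Golgi member, 3.60-fold lower. The landmark members RAB1A, RAB5A, RAB6A, RAB8A, RAB11A and RAB27A did not pass the test.

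Of the 63 genes, 53 passed the filter on low counts and were tested, and 10 did not pass. A call is an adjusted p under 0.05 in edgeR's quasi-likelihood test with Benjamini-Hochberg adjustment over all 15022 tested genes. The 15 called members are 28.3% of the 53 tested, and among all tested genes 29.3% were called, 14.4% higher and 15% lower. Among the 12459 protein-coding genes tested, 29.4% were called, 16.6% higher and 12.8% lower. The family was therefore called about as often as other genes. By compartment, the share called ran from 12.5% of early endosome members to 66.7% of SOCS box and atypical members. These groups hold 2 to 15 tested genes and were not tested against all genes. Its split was 11 to 4, and the median log2 fold change of the 53 members was 0.22, against -0.02 over all tested genes and 0.03 over protein-coding genes. Scaling by library size alone moved the median of all genes to -0.28. On that scale 3 members (RAB3A, RAB6B and RAB26) were called higher and 4 lower and the members' median was -0.05, so the direction of the family as a whole rests on the scaling, while its distance from the median of all genes was 0.24 with TMM and 0.23 with library size. For 24 of the 53 members (45.3%) the BP+Huaier and BP libraries did not overlap, against 46.8% of all tested genes and 47% of protein-coding genes.

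**Figure D1:**
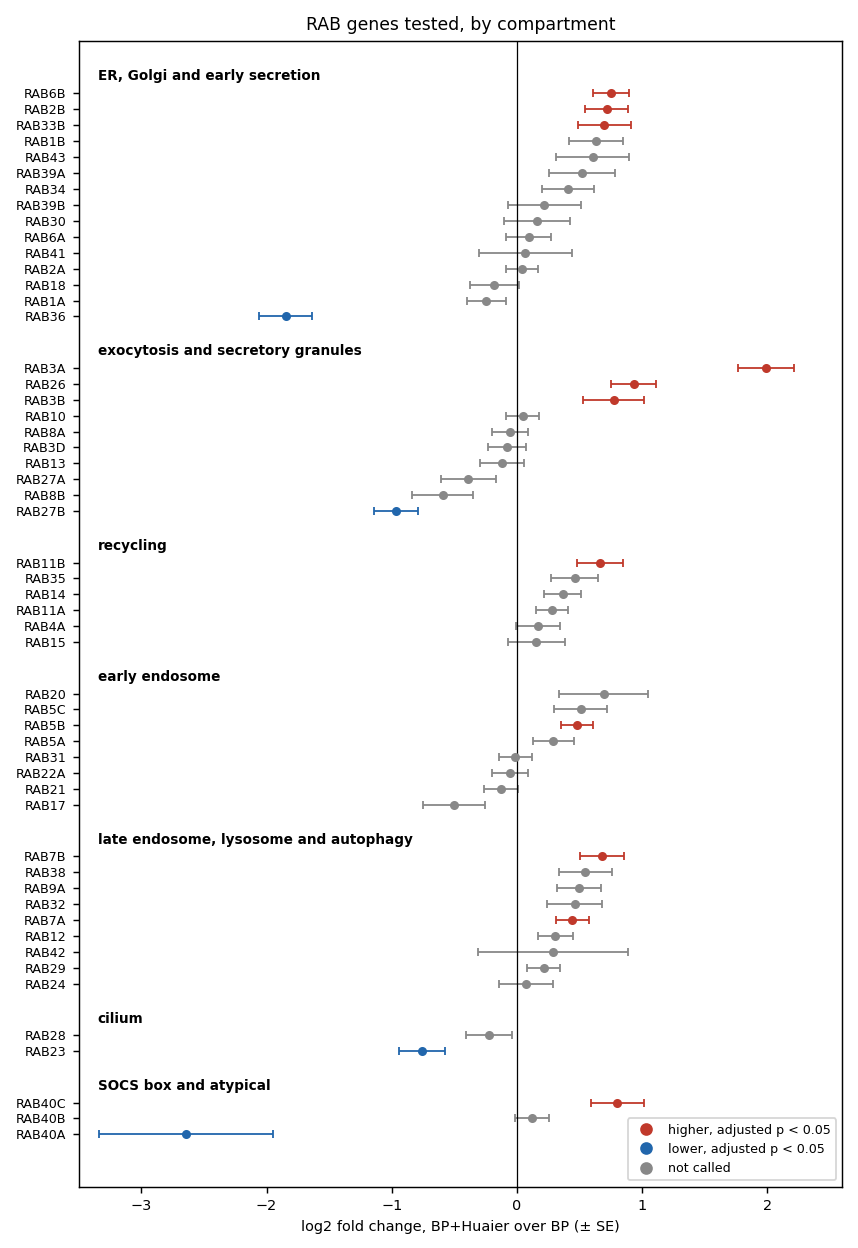
Log2 fold change of BP+Huaier over BP (horizontal axis) for the 53 tested RAB genes, grouped by compartment; points are fitted values, bars the standard error, red and blue mark members called higher (11) and lower (4). RAB3A at 1.99 and RAB36 at -1.85 lie outside the range of the other members except RAB40A, which rests on few counts.

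Under 15 other settings, including each library left out in turn, 5 members were called every time: RAB3A, RAB26 and RAB6B higher and RAB36 and RAB27B lower. How many of all genes were called every time was not computed. The other 10 called members lost the call when BP 1, BP 2, BP 3 or BP+Huaier 2 was left out, with adjusted p between 0.0515 and 0.157. Those fits have fewer samples, and between 11.2% and 13.4% of all genes were called in them. Without BP+Huaier 3, 59.8% of all genes were called, and 23 members were higher and 8 lower.

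The windows before the start of 3 of these 5 genes are shown because they are the regulatory sequence nearest to the largest stable changes for which a table gave one. Each is the 250 bases before the RefSeq start on build GRCh38.p14, written on the gene's strand from 5′ to 3′. Capitals mark the GC box GGGCGG and the CRE half-site TGACG, each on either strand, where it reads CCGCCC or CGTCA.

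RAB3A, chr19:18204043-18204292, minus strand: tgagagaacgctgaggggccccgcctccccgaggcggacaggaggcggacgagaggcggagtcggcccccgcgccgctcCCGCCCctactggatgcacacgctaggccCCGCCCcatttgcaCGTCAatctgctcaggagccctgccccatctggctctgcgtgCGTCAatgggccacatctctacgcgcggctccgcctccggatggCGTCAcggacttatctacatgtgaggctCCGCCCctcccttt
RAB6B, chr3:133895883-133896132, minus strand: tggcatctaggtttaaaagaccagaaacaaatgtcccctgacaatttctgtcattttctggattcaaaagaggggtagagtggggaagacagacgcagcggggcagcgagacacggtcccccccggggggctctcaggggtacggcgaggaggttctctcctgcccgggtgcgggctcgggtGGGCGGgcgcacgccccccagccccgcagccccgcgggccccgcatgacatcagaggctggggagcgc
RAB27B, chr18:54717607-54717856, plus strand: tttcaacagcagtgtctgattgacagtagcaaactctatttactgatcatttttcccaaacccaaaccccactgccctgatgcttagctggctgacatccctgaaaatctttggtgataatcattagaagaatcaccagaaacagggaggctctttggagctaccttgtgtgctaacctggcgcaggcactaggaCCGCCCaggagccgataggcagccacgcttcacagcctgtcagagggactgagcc

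The RAB3A window has a GC content of 68.4% and holds 3 GC boxes, 14, 142 and 171 bases before the start, and 3 CRE half-sites, 42, 86 and 128 bases before it. RAB6B has 1 GC box, 68 bases before its start, in a window of 65.2% GC, and RAB27B has 1, 55 bases before its start, in a window of 50.4% GC. The GC box occurs in 42.6% of the 35116 RefSeq windows of this length and in 39 of the 50 member windows found. The half-site occurs in 21.2% of all windows and in 18 of the 50 member windows found, and 1.01% of all windows hold at least 3. It was added to the search after the sequences had been read, and it lies inside the full CRE TGACGTCA, which is in 1.65% of windows and in none of the windows found for called members. The other motifs searched (E-box, CCAAT box, full CRE, AP-1, EGR, ARE and ERSE) had no match in the windows shown. A match describes letters and not a binding site. RAB26 and RAB36 are among the 13 members without a window in that table.

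Secretory vesicle members moved in both directions. Of 12 such genes 10 were tested, 3 were called higher and 1 lower, and the median log2 fold change was -0.07. RAB3A (ENSG00000105649.10, GRCh38 chr19:18196784-18204042, minus strand) had 36.8, 41.1 and 23.5 CPM in BP+Huaier, against 8.73, 7.61 and 9.21 CPM in BP. Every BP+Huaier library exceeded every BP library, and BP+Huaier 3 was the lowest of its group. The mean was 33.8 ± 9.16 CPM in BP+Huaier and 8.52 ± 0.823 CPM in BP (SD, n = 3 each), a log2 fold change of 1.99 ± 0.22 (SE) with an adjusted p of 0.0011. Exons of RAB3A overlap those of MPV17L2 on the other strand over 9.24% of their bases, and whether counting used strand is not given. MPV17L2 had 494, 325 and 269 counts in BP+Huaier and 271, 264 and 253 in BP. The part of its reads in the RAB3A counts was not tested.

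RAB26 (ENSG00000167964.13, chr16:2140803-2154165, plus strand), known from secretory granules of glands such as the pancreas, had 13.4, 16.2 and 13.4 CPM in BP+Huaier, against 7.47, 6.44 and 8.56 CPM in BP. All 3 BP+Huaier libraries lay above the BP range, with a log2 fold change of 0.93 ± 0.18 and an adjusted p of 0.0066. RAB3B, a paralog of RAB3A, had 8.52, 11.1 and 14.9 CPM in BP+Huaier, against 5.55, 8.09 and 6.61 CPM in BP. Its groups did not overlap but came close, BP+Huaier 1 lying just above BP 2. The log2 fold change was 0.77 ± 0.24 with an adjusted p of 0.042, and leaving out BP 1, BP 2, BP 3 or BP+Huaier 2 took that p to between 0.0748 and 0.157.

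RAB27B (ENSG00000041353.10, chr18:54717860-54895516, plus strand) had 114, 129 and 166 CPM in BP+Huaier, against 260, 302 and 238 CPM in BP. No BP+Huaier library reached the BP range, and BP+Huaier 3 came nearest to it. Its mean was 136 ± 27.1 CPM in BP+Huaier and 267 ± 32.1 CPM in BP, and the log2 fold change was -0.97 ± 0.18 with an adjusted p of 0.0056. Its paralog RAB27A, which acts on melanosomes and lytic granules, had 5.52, 3.99 and 6.11 CPM in BP+Huaier and 6.04, 7.82 and 6.67 CPM in BP. Those values overlapped, with a log2 fold change of -0.39 ± 0.22 and an adjusted p of 0.20. The difference between the paralogs' changes was not tested.

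RAB8A, which carries vesicles from the Golgi to the plasma membrane and the cilium, had 27.5, 25.05 and 30.3 CPM in BP+Huaier and 29.4, 26.4 and 30.2 CPM in BP, with a log2 fold change of -0.05 ± 0.14 and an adjusted p of 0.79. RAB10, which serves basolateral and GLUT4 vesicle delivery, had 160, 178 and 164 CPM in BP+Huaier and 158, 178 and 151 CPM in BP. The ranges of the groups nearly coincided. RAB8B had 9.57, 10.9 and 17.3 CPM in BP+Huaier and 16.6, 22.9 and 17.7 CPM in BP, where BP+Huaier 3 fell inside the BP range and the other BP+Huaier libraries below it (adjusted p = 0.094). RAB3D and RAB13 did not pass the test either, with log2 fold changes of -0.08 and -0.12.

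ER and Golgi members were the most numerous group. Of 19 genes 15 were tested, with 3 called higher, 1 lower and a median log2 fold change of 0.22. RAB36 (ENSG00000100228.14, chr22:23145366-23165663, plus strand), a Golgi member linked to the placing of late endosomes and lysosomes, had 4.96, 3.32 and 4.44 CPM in BP+Huaier, against 16.7, 12.7 and 16.6 CPM in BP. The highest BP+Huaier library was far below the lowest BP library. The mean was 4.24 ± 0.835 CPM in BP+Huaier and 15.3 ± 2.299 CPM in BP, and the log2 fold change was -1.85 ± 0.21 with an adjusted p of 0.0012.

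RAB6B (ENSG00000154917.11, chr3:133824235-133895882, minus strand), the form of the Golgi GTPase RAB6 best known from brain, had 97.2, 86.9 and 75.0 CPM in BP+Huaier, against 53.2, 49.0 and 51.8 CPM in BP. The groups were well apart, with a mean of 86.4 ± 11.1 CPM in BP+Huaier and 51.3 ± 2.17 CPM in BP, a log2 fold change of 0.75 ± 0.14 and an adjusted p of 0.0062. Exons of RAB6B overlap those of SRPRB on the other strand over 6.29% of their bases. SRPRB had 960 to 1072 counts in BP+Huaier and 967 to 1101 in BP. RAB6A, the ubiquitous form, had 59.9, 72.8 and 89.9 CPM in BP+Huaier and 68.5, 79.4 and 60.7 CPM in BP. Here the BP range lay within the BP+Huaier range, and the log2 fold change was 0.09 ± 0.18 (adjusted p = 0.71).

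RAB2B, which acts between ER and Golgi like its paralog RAB2A, had 14.7, 19.6 and 16.5 CPM in BP+Huaier, against 11.4, 10.1 and 9.33 CPM in BP. RAB33B, a Golgi member that binds the autophagy protein ATG16L1, had 7.41, 8.94 and 11.5 CPM in BP+Huaier, against 5.44, 6.33 and 5.43 CPM in BP. In both genes every BP+Huaier library exceeded every BP library, with log2 fold changes of 0.72 ± 0.17 (adjusted p = 0.016) and 0.70 ± 0.21 (adjusted p = 0.036). When BP 1, BP 2, BP 3 or BP+Huaier 2 was left out, the adjusted p was 0.0515 to 0.0743 for RAB2B and 0.0827 to 0.133 for RAB33B. RAB2A, the more abundant form, had 183, 185 and 168 CPM in BP+Huaier and 175, 185 and 161 CPM in BP.

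The RAB1 pair, needed for ER-to-Golgi transport, split by library. RAB1A had 72.9, 85.3 and 104 CPM in BP+Huaier and 101.1, 109 and 100.8 CPM in BP, with BP+Huaier 1 and 2 below the BP range and BP+Huaier 3 within it (log2 fold change -0.25 ± 0.16, adjusted p = 0.25). RAB1B had 172, 148 and 94.2 CPM in BP+Huaier and 87.4, 79.3 and 100 CPM in BP, with BP+Huaier 1 and 2 above the BP range and BP+Huaier 3 within it (log2 fold change 0.63 ± 0.22, adjusted p = 0.054). RAB43 was placed like RAB1B. RAB34 had 175, 147 and 96.1 CPM in BP+Huaier and 97.7, 102 and 115 CPM in BP, so BP+Huaier 3 fell below the BP range, and RAB18 had 23.0, 30.5 and 39.4 CPM in BP+Huaier and 33.9, 38.4 and 33.0 CPM in BP, so BP+Huaier 3 lay above it. RAB43, RAB34 and RAB18 did not pass the test. RAB43 shares 79.3% of its exon bases with the readthrough gene ISY1-RAB43, which had at most 2 counts in a library, and RAB1A shares 22.9% with CEP68 on the other strand.

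**Figure D2:**
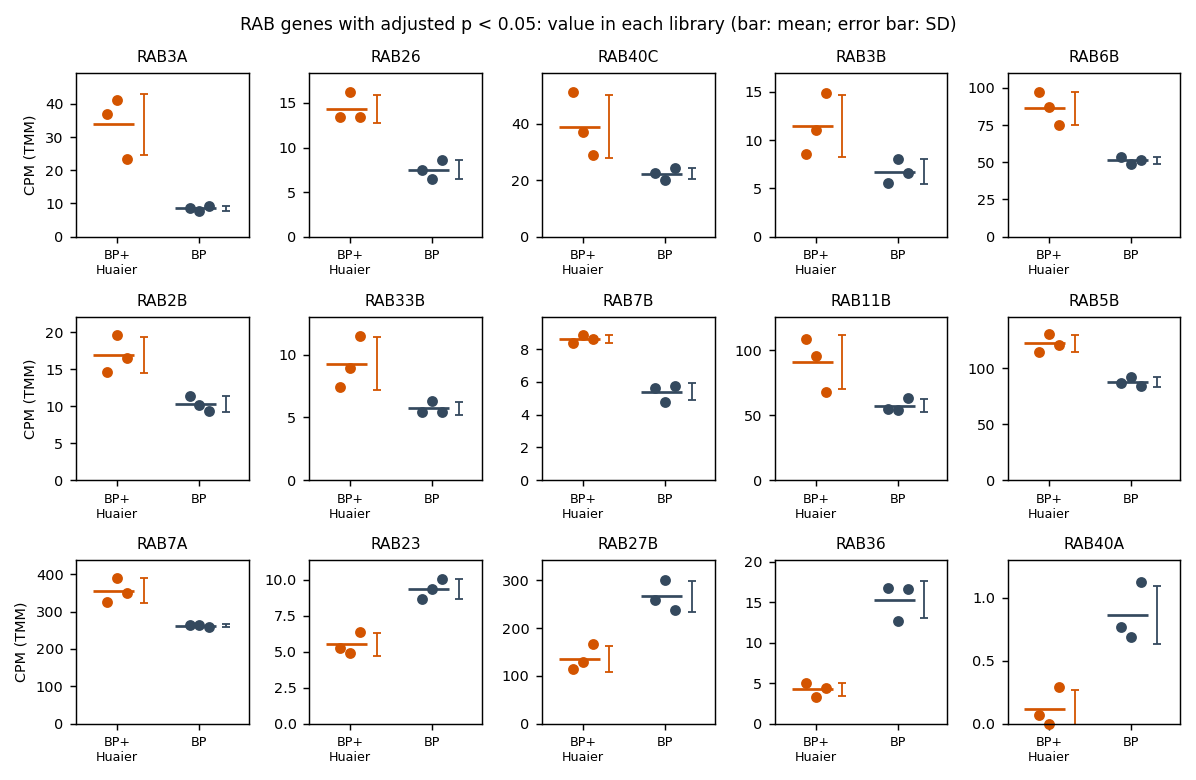
CPM with TMM scaling (vertical axis, from 0) of the 15 called RAB genes in each BP+Huaier (left) and BP (right) library; points are libraries, horizontal bars means and error bars SD. No called member's groups overlap, and RAB3A ranges from 23.5 to 41.1 CPM in BP+Huaier, against 7.61 to 9.21 CPM in BP.

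Of 10 late endosome, lysosome and autophagy members 9 were tested, 2 were called higher and 7 not called. In 6 of the 9 (66.7%) the groups did not overlap, against 46.8% of all tested genes, and the median log2 fold change was 0.44. The difference from all genes was not tested. The group summed to 185 ± 20.1 CPM per kb in BP+Huaier and 139 ± 5.70 in BP, without overlap, but to 622 ± 35.4 TPM in BP+Huaier and 595 ± 31.2 TPM in BP, with overlap. RAB7A (ENSG00000075785.14, chr3:128693669-128825942, plus strand), which directs late endosomes and autophagosomes to lysosomes, had 327, 391 and 351 CPM in BP+Huaier, against 263, 265 and 259 CPM in BP. The BP libraries were nearly identical and all lay below BP+Huaier. The mean was 356 ± 32.4 CPM in BP+Huaier and 263 ± 3.13 CPM in BP, and the log2 fold change was 0.44 ± 0.13 with an adjusted p of 0.035, which became 0.117 to 0.147 without BP 1, BP 2, BP 3 or BP+Huaier 2.

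RAB7B, which carries cargo from late endosomes to the trans-Golgi network, had 8.38, 8.87 and 8.64 CPM in BP+Huaier, against 5.66, 4.79 and 5.73 CPM in BP. The BP+Huaier libraries lay close together and above all BP libraries, with a log2 fold change of 0.68 ± 0.17 and an adjusted p of 0.020 (0.0581 to 0.0972 without BP 1, BP 2, BP 3 or BP+Huaier 2). RAB9A, of the same late endosome to trans-Golgi route, had 30.1, 47.5 and 38.6 CPM in BP+Huaier and 27.5, 28.2 and 26.6 CPM in BP. Its groups did not overlap, but the adjusted p was 0.063. RAB38, a member of lysosome-related organelles, RAB12 and RAB29, a regulator of the kinase LRRK2, likewise had groups that did not overlap without a call, at log2 fold changes of 0.55, 0.31 and 0.21. RAB32, the paralog of RAB38, had 98.3, 76.7 and 51.4 CPM in BP+Huaier and 58.6, 52.9 and 52.9 CPM in BP, so that BP+Huaier 3 fell below every BP library (adjusted p = 0.14). RAB24, an autophagy member, shares 44.8% of its exon bases with MXD3 on the same strand, so its counts are uncertain.

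Of the 8 early endosome members, all were tested and 1 was called. RAB5B, one of 3 forms of the GTPase of early endosome fusion, had 115, 130 and 121 CPM in BP+Huaier, against 86.6, 92.3 and 83.9 CPM in BP. The groups were separate, with a log2 fold change of 0.48 ± 0.13 and an adjusted p of 0.021, or 0.0740 to 0.114 without BP 1, BP 2, BP 3 or BP+Huaier 2. RAB5A had 27.5, 32.2 and 37.7 CPM in BP+Huaier and 26.4, 29.4 and 23.9 CPM in BP, which overlapped (log2 fold change 0.29 ± 0.16, adjusted p = 0.20). RAB5C had 103, 90.4 and 60.5 CPM in BP+Huaier and 62.4, 48.4 and 67.7 CPM in BP, where again only BP+Huaier 1 and 2 lay above the BP range (adjusted p = 0.10). RAB17, known from polarised epithelium, had 2.096, 3.69 and 3.11 CPM in BP+Huaier and 4.34, 4.10 and 4.19 CPM in BP, separate groups without a call (adjusted p = 0.15). RAB22A and RAB31 were the members whose 3 BP+Huaier values all lay within the BP range.

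Recycling members numbered 8, of which 6 were tested and 1 was called. RAB11B, a GTPase of recycling endosomes, had 108, 95.2 and 67.8 CPM in BP+Huaier, against 54.6, 54.2 and 62.8 CPM in BP. BP+Huaier 3 was only slightly above the highest BP library, and the log2 fold change was 0.66 ± 0.18 with an adjusted p of 0.027. That p was 0.0602 to 0.113 when any 1 library other than BP+Huaier 3 was left out. RAB11A had 105, 120 and 104 CPM in BP+Huaier and 88.7, 96.4 and 85.6 CPM in BP, groups that did not overlap, with a log2 fold change of 0.28 ± 0.13 and an adjusted p of 0.13. RAB14, which acts between Golgi and endosomes, also had separate groups, at a log2 fold change of 0.37 and an adjusted p of 0.085. RAB35, of fast recycling, was above the BP range in BP+Huaier 1 and 2 alone, and RAB4A overlapped.

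Of the cilium members, RAB23, a brake on hedgehog signalling, had 5.24, 4.88 and 6.40 CPM in BP+Huaier, against 8.68, 9.37 and 10.0 CPM in BP. All BP+Huaier libraries lay below the BP range, with a log2 fold change of -0.76 ± 0.18 and an adjusted p of 0.016, which was 0.0596 to 0.0777 without BP 1, BP 2, BP 3 or BP+Huaier 2. Over 57.8% of its exon bases RAB23 overlaps BAG2 on the other strand, which had 148 to 214 counts in BP+Huaier and 162 to 192 in BP, so the counts of RAB23 are uncertain if strand was not used. RAB28 overlapped between groups (log2 fold change -0.22 ± 0.19).

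The RAB40 members carry a SOCS box and serve as substrate adaptors of a cullin ubiquitin ligase. RAB40C had 51.1, 36.9 and 28.8 CPM in BP+Huaier, against 22.6, 20.2 and 24.2 CPM in BP. Every BP+Huaier library exceeded every BP library, with a log2 fold change of 0.80 ± 0.21 and an adjusted p of 0.022 (0.0631 to 0.101 without BP 1, BP 2, BP 3 or BP+Huaier 2). RAB40A rests on few reads, with 1, 0 and 5 counts in BP+Huaier, against 14, 13 and 19 in BP. Summed and scaled to library size with TMM, the level in BP+Huaier was 6.42-fold lower (95% exact interval 2.73 to 18.4, counting error only). The fitted log2 fold change was -2.64 ± 0.70 with an adjusted p of 0.022. Leaving out any 1 library other than BP+Huaier 3 gave an adjusted p of 0.0542 to 0.0897, and leaving out BP+Huaier 3 gave a log2 fold change of -4.30. RAB40B stayed uncalled at 0.12 ± 0.14.

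The 10 members that were not tested were RAB3C, RAB4B, RAB6C, RAB6D, RAB9B, RAB19, RAB25, RAB33A, RAB37 and RAB44. RAB6D and RAB44 had 0 counts in all 6 libraries, which allows up to 3 counts in each. RAB25, an epithelial relative of RAB11, had 0, 0 and 1 counts in BP+Huaier, against 4, 4 and 4 in BP, 10.0-fold lower with a 95% exact interval of 1.49 to 430. RAB33A had 0, 0 and 2 counts in BP+Huaier, against 7, 2 and 6 in BP, 6.28-fold lower with an interval of 1.46 to 56.6. Both intervals cover counting error only, and their genes were picked with their values in view. RAB37 leaned the other way, with 7, 13 and 5 counts in BP+Huaier, against 8, 3 and 4 in BP. No interval was computed for it. RAB6C, a near-identical copy of RAB6A, had at most 4 counts and could share reads with it.

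Compared between genes as CPM per kb of exon, the highest members were RAB32 (70.9 ± 22.0 in BP+Huaier and 51.5 ± 3.09 in BP) and RAB1B (70.7 ± 20.4 in BP+Huaier and 45.6 ± 5.36 in BP). RAB7A ranked 3rd in BP+Huaier, at 49.5 ± 4.50 per kb, against 5th in BP, at 36.5 ± 0.436. RAB10 ranked 4th in BP+Huaier, at 45.8 ± 2.48, against 3rd in BP, at 44.4 ± 3.74, and in BP+Huaier the levels of RAB7A and RAB10 did not differ beyond their spread. In BP the levels of RAB10 and RAB1B did not differ beyond their spread, nor did those of RAB27B and RAB7A. RAB27B ranked 13th of the family in BP+Huaier, at 19.1 ± 3.79 CPM per kb, against 4th in BP, at 37.3 ± 4.49. The 10 highest members of each group made up 58.0% of the family's summed level in BP+Huaier and 57.7% in BP. The family summed to 758 ± 76.3 CPM per kb in BP+Huaier and 623 ± 7.25 in BP, but to 2553 ± 169 TPM in BP+Huaier and 2673 ± 94.6 TPM in BP, so the direction of the sum turns with the scale.

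Shares within a paralog set do not depend on the scaling between libraries, since both members are read in the same library. RAB3A made up 50.8 ± 4.8% of the summed per-length level of RAB3A to RAB3D in BP+Huaier and 20.5 ± 2.3% in BP, with 50.8%, 55.6% and 46.1% in the BP+Huaier libraries against 20.3%, 18.3% and 22.9% in the BP libraries. RAB3D, the form known from zymogen granules, made up 46.6 ± 3.8% in BP+Huaier and 77.2 ± 2.1% in BP. The leading RAB3 form therefore differed: RAB3A led in BP+Huaier 1 and 2, and RAB3D led in BP+Huaier 3 and in every BP library. RAB6B made up 48.7 ± 8.2% of the RAB6A and RAB6B sum in BP+Huaier and 37.6 ± 3.9% in BP, where BP+Huaier 3, at 40.3%, lay within the BP range. RAB2B held 12.8 ± 1.6% of its pair in BP+Huaier and 8.4 ± 0.7% in BP, with no overlap. RAB27B held 95.3 ± 1.0% of the RAB27 pair in BP+Huaier and 96.8 ± 0.3% in BP, while the pair itself summed to 19.996 ± 3.89 CPM per kb in BP+Huaier and 38.5 ± 4.61 in BP, and to 69.7 ± 26.3 TPM in BP+Huaier and 165 ± 23.6 TPM in BP. RAB3A to RAB3D summed to 36.8 ± 7.17 CPM per kb in BP+Huaier and 23.3 ± 0.763 in BP, and to 123 ± 5.37 TPM in BP+Huaier and 99.9 ± 5.07 TPM in BP, without overlap on either scale.

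**Figure D3:**
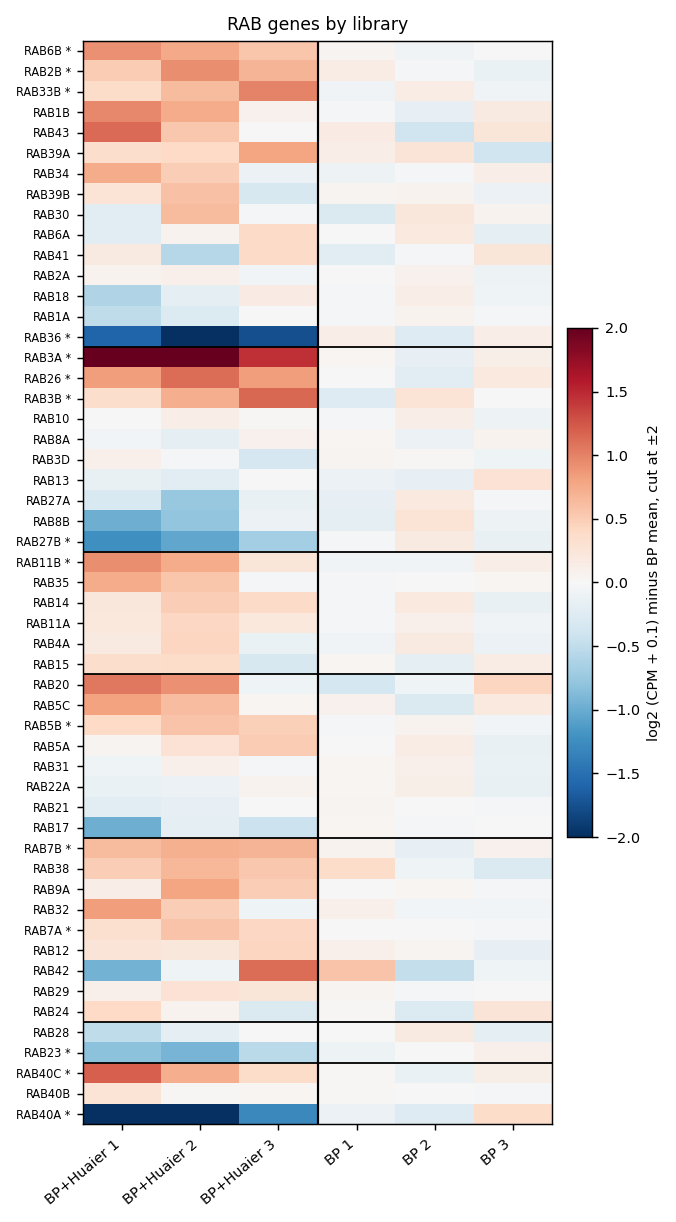
Log2 of CPM + 0.1 minus the BP mean (colour, limited to ±2) for the 53 tested RAB genes in each library, BP+Huaier left of BP, with lines between compartments and an asterisk on called members. RAB3A, RAB36, RAB27B and RAB40A keep their colour across all 3 BP+Huaier libraries, whereas RAB1B, RAB32, RAB34 and RAB5C are red in BP+Huaier 1 and 2 only.

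Many members shared a pattern across libraries, and BP+Huaier 3 also stood apart over all tested genes on the first principal component. Of the 53 tested, 19 were above the BP range in all 3 BP+Huaier libraries and 5 below it in all 3. A further 9 were above it in BP+Huaier 1 and 2 only (RAB1B, RAB5C, RAB15, RAB20, RAB32, RAB34, RAB35, RAB39B and RAB43), and 6 were below it in those libraries only (RAB1A, RAB8B, RAB18, RAB21, RAB27A and RAB28). BP+Huaier 3 was the library nearest to the BP mean for 29 of the 53 members and 8 of the 15 called ones, BP+Huaier 1 for 17 and 7, and BP+Huaier 2 for 7 and 0. Groups that did not overlap made up 45.3% of members and 46.8% of all tested genes. The other counts were not made over all genes, so they do not set the RAB genes apart.

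GC content of the transcript moved with this pattern. Its median was 57.6% in the 9 members high in BP+Huaier 1 and 2 only and 37.9% in the 6 low in them only, against 46.3% in the 19 above the BP range in all 3 BP+Huaier libraries. Median GC was 50.5% in called higher members, 41.4% in called lower ones and 44.7% in the rest, against 49.4% over all tested genes. Across the 53 members, which share their libraries, the log2 fold change had a Pearson r of 0.32 and a Spearman rho of 0.47 with GC content, given as a description. Library by library, r between GC content and the difference from the BP mean was 0.50, 0.29 and 0.03 in BP+Huaier 1, 2 and 3. It was 0.21, -0.73 and 0.59 in BP 1, 2 and 3, where each was set against the mean of the other BP libraries. Over all tested genes r was 0.39, 0.27 and 0.03 in BP+Huaier 1, 2 and 3. In BP 1, 2 and 3 it was 0.03, -0.44 and 0.42, so the slope was not particular to the RAB genes. With the trend on GC content and length removed from each library, 19 members were called higher and 4 lower, with 39.0% of all genes called, and the 5 stable members kept their calls.

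**Figure D4:**
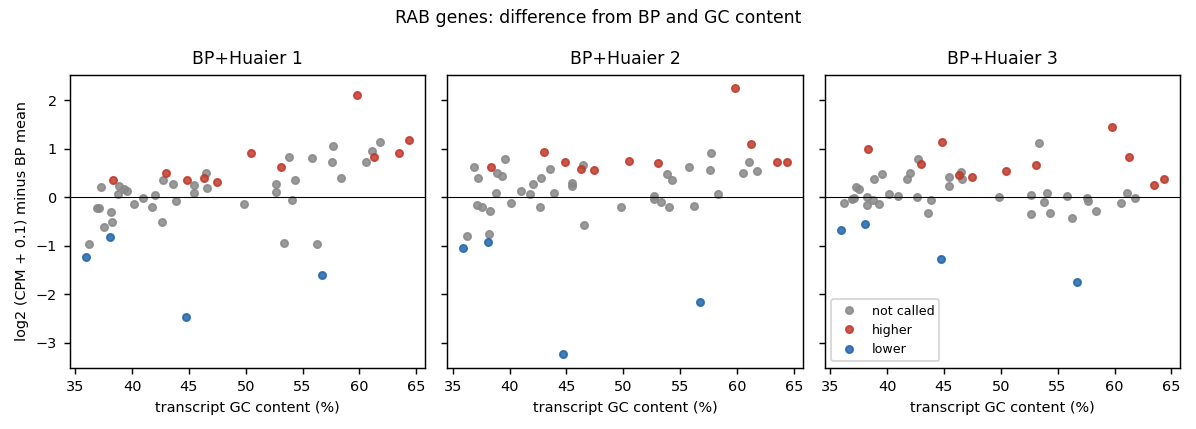
Log2 of CPM + 0.1 minus the BP mean (vertical axis) against transcript GC content in percent (horizontal axis) for the 53 tested RAB genes in each BP+Huaier library; red and blue mark members called higher and lower. The uncalled members slope upward in BP+Huaier 1, where r over all 53 is 0.50, and lie flat in BP+Huaier 3, where it is 0.03. Over all tested genes r is 0.39 in BP+Huaier 1 and 0.03 in BP+Huaier 3.

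The proteins that load, switch and read RABs were followed in lists of 163 genes, of which 153 were tested. Of these 23 were called higher and 17 lower, 26.1% of those tested, which is close to the share of all genes, and the median log2 fold change was -0.02. Library-size scaling gave 10 higher and 23 lower. In 63 of the 153 genes (41.2%) the groups did not overlap, against 46.8% of all tested genes and 47% of protein-coding genes. Of the 40 called, 11 were called in every alternative that gave a value. The lists give only the direction of each gene, and a GAP or GEF acts on more than 1 RAB.

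Among the 10 genes of prenylation and membrane extraction, 2 were higher and 1 lower, 30% called against 29.3% of all tested genes. CHM, the escort protein that presents new RABs for prenylation, had 11.7, 10.3 and 16.7 CPM in BP+Huaier, against 22.2, 28.5 and 25.9 CPM in BP. Its groups were apart, with a log2 fold change of -0.98 ± 0.21 and an adjusted p of 0.0097, or 0.0544 without BP 2. PRAF2, of the family of RAB acceptor proteins, had 36.0, 45.4 and 28.8 CPM in BP+Huaier, against 23.3, 21.8 and 25.8 CPM in BP (log2 fold change 0.64 ± 0.18, adjusted p = 0.032). Leaving out BP 1, BP 2, BP 3 or BP+Huaier 2 gave an adjusted p of 0.0710 to 0.128 for PRAF2.

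Of 48 tested GEFs 5 were higher and 4 lower, 18.8% called against 29.3% of all tested genes. RAB3IL1, an exchange factor for RAB3A, had 39.8, 28.5 and 21.0 CPM in BP+Huaier, against 13.2, 12.5 and 16.3 CPM in BP. All BP+Huaier libraries exceeded BP, with a log2 fold change of 1.09 ± 0.24 and an adjusted p of 0.011 (0.0520 without BP 1 and 0.0620 without BP 2). DENND5B, of the DENN domain exchange factors, had 46.1, 44.3 and 58.5 CPM in BP+Huaier, against 112, 118 and 104 CPM in BP, a clear gap with a log2 fold change of -1.16 ± 0.15 and an adjusted p of 0.0017. DENND4A, an exchange factor for RAB10, had 5.31, 5.84 and 13.4 CPM in BP+Huaier, against 19.5, 23.5 and 15.6 CPM in BP (log2 fold change -1.24 ± 0.34, adjusted p = 0.025). Its BP+Huaier 3 value lay close to the BP range, and without BP 1, BP 2, BP+Huaier 1 or BP+Huaier 2 its adjusted p was 0.0511 to 0.108.

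Of 37 tested GAPs 6 were higher and 4 lower, 27.0% called against 29.3% of all tested genes. TBC1D10A, a GAP of RAB27A and RAB35, had 51.1, 52.4 and 28.4 CPM in BP+Huaier, against 12.9, 10.7 and 11.3 CPM in BP. It was 3.77-fold higher, with a log2 fold change of 1.91 ± 0.24 and an adjusted p of 0.0016. TBC1D17 had 171, 165 and 125 CPM in BP+Huaier, against 63.8, 72.4 and 79.97 CPM in BP (log2 fold change 1.09 ± 0.16, adjusted p = 0.0028), and TBC1D9 had 9.99, 13.2 and 12.3 CPM in BP+Huaier, against 6.32, 6.33 and 6.02 CPM in BP (0.92 ± 0.18, adjusted p = 0.0064). In these 3 GAPs no BP+Huaier library fell into the BP range. Exons of TBC1D17 overlap those of AKT1S1 on the other strand over 8.26% of their bases. PPM1H, the phosphatase that reverses LRRK2 phosphorylation of RABs, was the called member of the kinase and phosphatase list, with 4.54, 3.92 and 4.55 CPM in BP+Huaier, against 6.92, 6.92 and 6.61 CPM in BP (log2 fold change -0.65 ± 0.18, adjusted p = 0.027, or 0.0915 to 0.118 without BP 1, BP 2, BP 3 or BP+Huaier 2).

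Effectors were the largest list. Of 55 tested 10 were higher and 7 lower, 30.9% called against 29.3% of all tested genes. Effectors are given by the RAB they bind, a grouping made after the values were seen and so a description. Across all tested genes 14.4% were called higher and 15% lower, and no such group was tested against those shares. Among 8 tested RAB27 effectors 3 were lower and 5 not called, with a median log2 fold change of -0.49. SYTL2, a tether of RAB27 vesicles, had 4.12, 6.502 and 10.2 CPM in BP+Huaier, against 14.9, 16.7 and 15.5 CPM in BP, with a log2 fold change of -1.17 ± 0.28 and an adjusted p of 0.017 (0.0515 to 0.0729 without BP 1, BP 2, BP 3 or BP+Huaier 2). UNC13D, the priming factor of lytic granules, had 1.82, 1.48 and 1.61 CPM in BP+Huaier, against 3.73, 4.10 and 3.96 CPM in BP (log2 fold change -1.26 ± 0.23, adjusted p = 0.0053), and MYRIP, a myosin linker, was near the floor at 0.140, 0.148 and 0.403 CPM in BP+Huaier, against 0.714, 1.17 and 1.00 CPM in BP. MYRIP had a log2 fold change of -1.97 ± 0.51 and an adjusted p of 0.021, which was 0.0529 to 0.0961 without any 1 library other than BP+Huaier 3 and came with a log2 fold change of -2.67 without BP+Huaier 3. These 3 effectors were lower, as RAB27B was, but they were picked with their values in view. Whether they change together with RAB27B was not tested.

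Of 4 RAB6 effectors tested, 3 were higher, against 14.4% of all tested genes, a difference that was not tested. BICD1, a dynein adaptor of RAB6 vesicles, had 33.4, 44.3 and 40.6 CPM in BP+Huaier, against 19.1, 18.6 and 16.6 CPM in BP, with a log2 fold change of 1.12 ± 0.16 and an adjusted p of 0.0021. Its paralog BICD2 had 102, 116 and 104 CPM in BP+Huaier, against 69.8, 65.0 and 69.4 CPM in BP (log2 fold change 0.66 ± 0.13, adjusted p = 0.0066), and KIF20A, a kinesin that binds RAB6 and serves cytokinesis, had 205, 193 and 188 CPM in BP+Huaier, against 123, 125 and 122 CPM in BP (0.66 ± 0.12, adjusted p = 0.0057). In all 3 the groups were far apart relative to their spread.

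Of 8 RAB11 effectors tested, 3 were higher and 5 not called, though the median log2 fold change was -0.13. Over all tested genes 14.4% were called higher and 15% lower. RAB11FIP4 had 59.7, 49.8 and 45.7 CPM in BP+Huaier, against 14.9, 16.7 and 15.2 CPM in BP, 3.32-fold higher with a log2 fold change of 1.73 ± 0.16 and an adjusted p of 0.00062. RAB11FIP5 had 220, 195 and 134 CPM in BP+Huaier, against 86.4, 87.0 and 92.8 CPM in BP (log2 fold change 1.05 ± 0.19, adjusted p = 0.0052). RAB11FIP1 had a smaller difference, with a log2 fold change of 0.45 ± 0.14 and an adjusted p of 0.038, which was 0.0506 to 0.151 without any 1 library other than BP+Huaier 3. For RAB5, 2 of 7 tested effectors were lower, ANKFY1 at -0.96 ± 0.24 (adjusted p = 0.019, or 0.0602 to 0.0875 when 1 of BP 1, BP 2, BP 3 and BP+Huaier 2 was left out) and APPL2 at -0.69 ± 0.23 (adjusted p = 0.049, or 0.0852 to 0.176 without any 1 library other than BP+Huaier 3), and the median was -0.56, opposite in sign to RAB5B itself. The 4 tested RAB7 effectors had a median log2 fold change of 0.13 without a call. GOLGA2, the Golgi matrix effector of RAB1, was higher at 148, 145 and 138 CPM in BP+Huaier, against 74.0, 75.5 and 77.0 CPM in BP (log2 fold change 0.93 ± 0.12, adjusted p = 0.0017). USO1, of the same effector list, was called lower. Its log2 fold change lay between -0.79 and -0.35 under the 15 alternatives, and 9 of them kept the call. Effectors of RAB1 were not counted as a group.

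**Figure D5:**
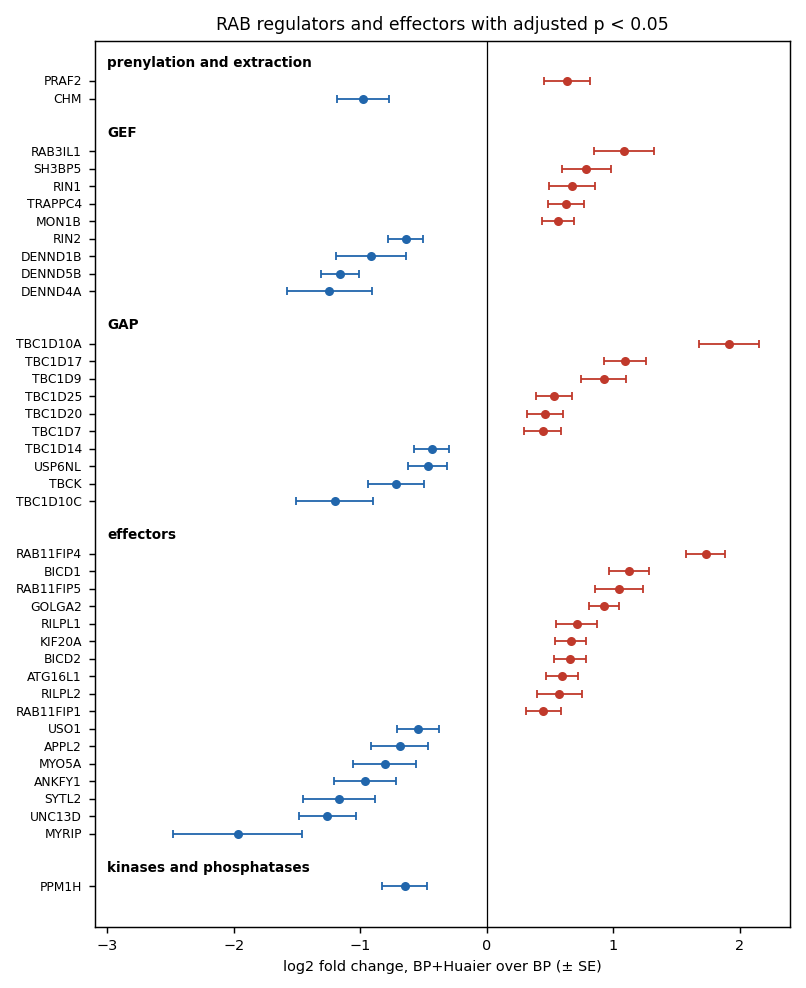
Log2 fold change of BP+Huaier over BP (horizontal axis, ± SE) of 39 of the 40 called regulators and effectors, by list; red is higher (22), blue lower (17). TBC1D10A at 1.91 and RAB11FIP4 at 1.73 are the highest points, and MYRIP at -1.97 is the lowest.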

How the data were processed

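Per the labels' protocols, TRIzol RNA was sequenced as pairs of 150 bp reads. The authors used fastp 0.20.0, HISAT2 2.1.0 and featureCounts 1.6.1 on GRCh38, per the submitters' processing notes. No source used here gives the annotation or the settings for strand and multi-mapping. What the authors deposited were raw, whole-number gene counts. The 44 second copies of genes on the Y chromosome, with 0 counts, and 1 gene whose lines were broken into 3 pieces were left out. Symbols matched 99.8% of the genes; biotypes and GC content came from GENCODE.

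The analysis used edgeR 4.0.16 in R 4.3.3: filterByExpr by group, TMM, and the robust quasi-likelihood test of BP+Huaier over BP with group as the only term, adjusted by Benjamini-Hochberg over 15022 genes. The common biological coefficient of variation was 18.1%. CPM carries the TMM scale, CPM per kb divides it by exon length, and TPM sums to 1000000 in each library. Within groups, pairs of libraries differed with 3.71 to 77.9 times the variance of sampling, and each library was kept as a replicate. Same-numbered libraries did not deviate together, so the numbers were not taken to pair them.

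The members and lists were chosen with earlier results of these data known. The text names the called members, RAB1A, RAB5A, RAB6A, RAB7A, RAB8A, RAB11A and RAB27A, and for each regulator list the 3 called genes with the largest change among those averaging at least 5 CPM. Of the genes the rule names, 1 is not reported here, though it enters the counts. All others named were picked with their values in view. The alternatives included DESeq2 1.42.0 and its size factors, library size, limma-voom (limma 3.58.1), other filters, protein-coding genes only, an adjusted p under 0.01, a replicate block, removal of a GC and length trend (spline with 5 df), and each library left out. Intervals and floors cover counting error only. Figures were drawn with matplotlib 3.10.9.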

Additional observations from a re-analysis of the deposited data

How the results depend on the processing

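The 11 higher and 4 lower RAB members became 3 and 4 when library size alone set the scale, 17 and 5 with no filter on low counts, 19 and 4 with the GC and length trend removed and 3 and 2 at an adjusted p under 0.01. They were 14 and 4 by DESeq2, 11 and 4 with DESeq2 size factors or limma-voom, 8 and 3 among genes of at least 5 CPM and 9 and 4 with protein-coding genes only. The 23 higher and 17 lower regulators and effectors became 10 and 23 with library size alone, 28 and 31 with the trend removed and 10 and 4 at an adjusted p under 0.01. They were 30 and 24 with no filter and 27 and 20 by DESeq2. The cause was not tested, except that a stricter threshold passes fewer genes by construction. Leaving out 1 library gave 3 to 23 higher and 2 to 8 lower members, and 10 to 44 higher and 3 to 47 lower regulators, with the upper ends without BP+Huaier 3.

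With the replicate number as a block there were 5 higher and 4 lower members, and 15 higher and 12 lower regulators. The deviations of same-numbered libraries correlated at 0.01, -0.06 and -0.28. These values show no shared deviation but cannot exclude a pairing, and the labels state none.

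Of 788 values of single members under these alternatives, 692 stayed on their side of the threshold, 61 lost a call and 35 gained one. A called direction was reversed in 0 of them. The 692 include values of uncalled members whose sign changed, such as RAB22A, whose log2 fold change ran from -0.31 to 0.305. Of the 38 uncalled members, 19 were called under no alternative and 19 under at least 1. With 3 libraries a group, small differences in uncalled members may have gone undetected at this depth and spread.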
